A study of Mus musculus with 8 samples.

Results

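The glutathione, thioredoxin and antioxidant defence genes were examined in whole lenses of mouse embryos at embryonic day 15.5 (E15.5). A list of 37 such genes was matched to the annotation of the Affymetrix mouse expression array used by taking every probe set that names a listed gene alone. By this rule 33 of the 37 genes were represented, by 59 of the 22626 probe sets tested, and all 59 were analyzed without any filter on low values. Prdx1, Prdx5, Prdx6 and G6pdx had no probe set of their own under the rule and were not analyzed here. Lenses of wild type embryos (4 samples) were compared with lenses of dnBrg1 transgenic embryos (4 samples), with 1 array per sample. The paper calls these biological replicates without saying how many embryos or lenses went into each. The spread within a group may therefore differ from the spread between individual embryos. The dnBrg1 transgene encodes Brg1, the ATPase of SWI/SNF chromatin remodeling complexes, as a dominant-negative protein with a mutated ATP-binding site and a FLAG tag. An αA-crystallin promoter fragment, which is active in lens fiber cells, drives the transgene, so the lens epithelium and other eye tissues are not its intended site of expression. The transgenic embryos came from 1 founder line (B3), were heterozygous for the insertion, and carried both endogenous Brg1 alleles. The labels give a mixed strain background for all 8 samples, wild type littermates served as controls, and neither group received a treatment. The comparison asks how antioxidant transcripts respond when Brg1 is blocked in lens fibers.

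Lens fibers live long, turn over little protein and are exposed to light and oxygen, and glutathione is their main soluble antioxidant. Glutathione is built from glutamate, cysteine and glycine, is oxidized when peroxidases and glutaredoxin use it, and is reduced again by glutathione reductase with NADPH. The thioredoxin system runs beside it: thioredoxin reductases reduce thioredoxins, which in turn reduce peroxiredoxins, methionine sulfoxide reductases and other proteins. The transcription factor Nrf2 (gene Nfe2l2) is held back by Keap1 and, when released, binds antioxidant response elements near many of these genes.

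The antioxidant response element core, written TGACNNNGC, was searched on both strands of the RefSeq promoter windows of the GRCm38.p6 build, which run from 250 bases before to 50 bases after an annotated start. Of the 33 genes, 27 matched the table, with 38 windows, and Gclc, Gsr, Sod3, Gsta4, Hmox1 and Msra were not in it. The core was present in 6 of the 38 member windows (15.8%) and in 4071 of all 32851 windows (12.4%). The stretches around these 6 matches are printed below because their genes include Nfe2l2, the enzyme genes Gclm and Txnrd1, and Mpst, the member gene with the largest increase on its own probe set. Each is written 5′ to 3′ along the gene's strand and ends before the annotated start, with the core in capitals.
Gclm, chr3:122245398-122245456, plus strand: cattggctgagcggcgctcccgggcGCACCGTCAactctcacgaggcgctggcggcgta
Txnrd1, chr10:82859089-82859147, plus strand: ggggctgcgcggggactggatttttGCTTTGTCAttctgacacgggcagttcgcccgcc
Sod1, chr16:90220681-90220739, plus strand: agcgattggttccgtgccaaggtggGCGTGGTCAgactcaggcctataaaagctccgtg
Gstm5, chr3:107895787-107895845, plus strand: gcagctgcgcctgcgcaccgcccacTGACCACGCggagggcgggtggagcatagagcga
Nfe2l2, chr2:75704870-75704913, minus strand: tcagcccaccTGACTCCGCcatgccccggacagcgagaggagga
Mpst, chr15:78406764-78406800, plus strand: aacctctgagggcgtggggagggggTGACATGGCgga
In Gclm, Txnrd1 and Sod1 the core lies on the strand opposite to the gene, and in Gstm5, Nfe2l2 and Mpst it lies on the gene's own strand. Its first base lies 134, 92 and 56 bases before the start in the former group and 42, 240 and 12 bases before it in the latter. These matches are letters in a window and carry no measurement of binding.

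Values are log2 RMA intensities, a difference is dnBrg1 minus wild type on the log2 scale with its standard error (SE) after ±, and a probe set was called at a limma adjusted p (Benjamini-Hochberg over all 22626 probe sets) under 0.05. Median intensity on the linear scale lay between 196.9 and 209.1 on the 8 arrays, whose number limits the precision. Cryaa, a lens fiber marker, read 14.34, 14.23, 14.31 and 14.19 in wild type and 14.30, 14.34, 14.30 and 14.29 in dnBrg1 lenses and was not called. These values lie near the maximum intensity of the arrays (14.8), where a change may not show in full. Of the Smarca4 probe sets (Smarca4 encodes Brg1), 1426805_at was upregulated by 2.35 ± 0.21 and 1426804_at was not called (-0.24 ± 0.11). The signal difference between 3′ and 5′ probe sets of the array controls separated the groups: for β-actin it was 2.47, 2.96, 1.85 and 2.71 in wild type and 0.60, 0.65, 0.51 and 0.55 in dnBrg1 samples, and for Gapdh 1.33, 2.36, 1.0 and 1.69 against 0.69, 0.65, 0.67 and 0.65. Each control differed with p = 0.0286 by exact permutation of the samples (two-sided, 70 assignments), the smallest p this design allows, and with adjusted p = 0.0286 over both controls. The groups do not overlap in this difference, so it and genotype cannot be told apart for any probe set. Fits with the mean of both controls as a covariate, named the control covariate here, are given beside the results. This mean had an SD of 0.52 in wild type and 0.03 in dnBrg1 samples (n = 4 each). Its slope thus comes almost wholly from the wild type samples and is carried beyond their range. A call kept or lost in these fits therefore does not separate genotype from the control difference. Lists of cell type markers were compared as well, each taken on the probe set of a marker with the highest mean over the 8 samples. The summed intensity of 5 lens fiber markers was 70140 to 75199 in wild type and 76469 to 83857 in dnBrg1 samples, with Bfsp1 called higher (1.54 ± 0.16) and Cryaa, Cryba1, Crygs and Mip not called, although a further Mip probe set was called higher (1.34 ± 0.30). For 4 lens epithelium markers the sum was 9028 to 10167 against 10293 to 12304 (2 called higher and 1 lower), without overlap between groups. The higher ones were Pax6, the brightest of the 4 (0.58 ± 0.11), and Cdh1 (0.38 ± 0.11). Other Pax6 probe sets were called higher (1.39) or not called, and Foxe3 was not called (-0.16 ± 0.12). The lower one was Npnt (-0.79 ± 0.16), of which other probe sets were called higher (0.69, 1.07 and 1.13) or not called (-0.07). For 6 macrophage markers the sum was 3726 to 4992 against 1603 to 3016 (3 higher, 1 lower), also without overlap. That sum follows Csf1r, the brightest of the 6 and the only one called lower (-2.13 ± 0.19). Other Csf1r probe sets differed by -2.03 ± 0.21, called, and -0.32 ± 0.15, not called, while Cx3cr1, Lyz2 and Fcgr3 were called higher. The sums of the groups overlapped for 5 vascular endothelium markers (3455 to 3768 against 2742 to 3463, 1 higher and 2 lower), 5 erythroid markers (837 to 1400 against 572 to 1543, none called), 3 retinal neuron markers (4669 to 7650 against 4916 to 7471, 1 higher and 2 lower) and 5 pigment cell markers (6057 to 9328 against 4857 to 7119, 2 lower). Of 5 mesenchyme markers none was called on these probe sets, while a further Pdgfra probe set was called higher (1.71 ± 0.16), and their sum was 10629 and 9579 in dnBrg1 samples 1 and 4 against 3583 to 6716 in the other samples. Probe sets of Elavl4 (-0.92, -0.60 and 0.96) and of Flt1 (-0.71, -1.22 and 0.45) were called in both directions. The part of these cell types in the member results was not tested. In whole lenses, fewer cells of a type and less RNA per cell cannot be told apart.

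Of the 59 member probe sets, 20 were upregulated and 10 were downregulated in dnBrg1 lenses, and 29 did not pass the test. Among all probe sets tested, 40.8% were called, 19.8% higher and 21.0% lower, so that 33.9% of member probe sets called higher stood against 19.8%, and 16.9% called lower against 21.0%. The members lay mostly among brighter probe sets: 43 of 59 had a mean at or above the median of all probe sets (7.69). Within this brighter part, 14 of 43 members were called higher (32.6%) and 9 lower (20.9%), beside 27.7% and 25.8% of all 11313 brighter probe sets. The median difference was 0.14 over member probe sets and -0.08 over all probe sets tested; it was 0.083 without wild type sample 2 and 0.213 without dnBrg1 sample 3. The groups did not overlap for 31 of the 59 member probe sets, and for 40.1% of all probe sets. Taking for each gene its own probe set, the probe set with the highest mean over the 8 samples, 10 of 33 genes were upregulated and 6 were downregulated, against 17.5% called higher and 23.3% called lower among all 12393 genes. These shares were not matched for brightness, as 30 of the 33 genes lay at or above the median of all probe sets, against 6990 of all 12393. On the own probe sets, the groups did not overlap for 19 of the 33 genes, among them the 16 called, and for 4996 of all 12393 genes. With the control covariate, 7 of 59 member probe sets were called, beside 6.37% of all probe sets.

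**Figure D1:**
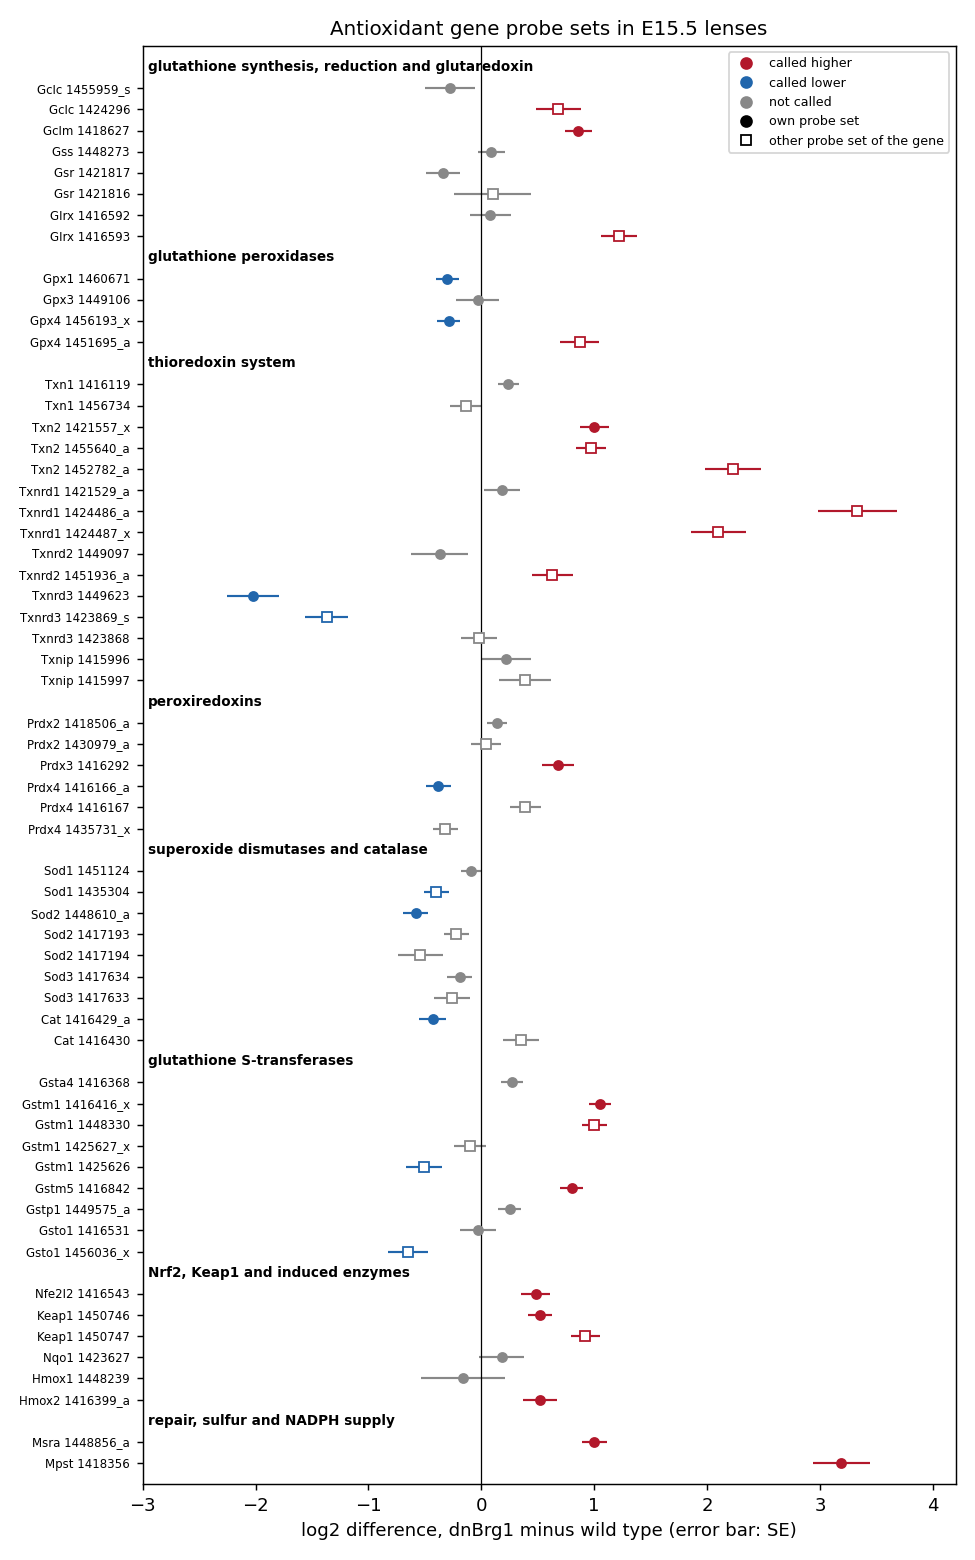
Log2 difference, dnBrg1 minus wild type (horizontal axis), for the 59 probe sets of 33 antioxidant genes (vertical axis), grouped by role; filled circles are each gene's own probe set, open squares its other probe sets, bars are the SE, and red, blue and gray mark probe sets called higher, called lower and not called. Differences run from -2.02 for Txnrd3 to 3.33 for a Txnrd1 probe set, and only Gpx4 and Gstm1 have probe sets called on both sides of 0.

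Glutathione synthesis was represented by Gclc and Gclm, the catalytic and modifier subunits of glutamate-cysteine ligase, and by glutathione synthetase, Gss. Gclm read 8.48, 8.40, 8.22 and 8.47 in wild type lenses and 9.11, 9.39, 9.10 and 9.42 in dnBrg1 lenses. The groups did not overlap, and the modifier subunit was upregulated 1.82-fold (0.86 ± 0.12, adjusted p = 0.000425). Gclc was not called on its own probe set (-0.28 ± 0.22), where wild type sample 3 was the lowest of all 8 samples (7.86) and wild type sample 2 the highest (8.99). Its other probe set, 1424296_at, was upregulated by 0.68 ± 0.20 (adjusted p = 0.0233), and this call did not hold without wild type sample 1, 3 or 4 or without dnBrg1 sample 1, 2 or 4 (differences 0.60 to 0.67). Without wild type sample 3 the own Gclc probe set was called lower instead (-0.48, adjusted p = 0.0494), so the catalytic subunit has no settled direction. Gss differed by 0.09 ± 0.12 and was not called.

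Glutathione reductase, Gsr, which returns oxidized glutathione to the reduced form, was not called on either probe set (-0.34 ± 0.15 and 0.10 ± 0.34). Without wild type sample 2 its own probe set was called lower (-0.44). Glutaredoxin, Glrx, which uses glutathione to reduce mixed disulfides on proteins, was split between its probe sets. On 1416593_at it read 5.99, 5.61, 6.10 and 6.18 in wild type and 7.24, 7.16, 7.43 and 6.91 in dnBrg1 lenses, an upregulation of 1.22 ± 0.16 (adjusted p = 0.000303) without overlap. Its own probe set differed by 0.08 ± 0.18 and was not called.

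The glutathione peroxidases reduce hydrogen peroxide and lipid peroxides at the expense of glutathione. Gpx1, the abundant cytosolic peroxidase, read 13.45, 13.36, 13.27 and 13.33 in wild type lenses and 12.99, 12.91, 13.11 and 13.18 in dnBrg1 lenses. The groups did not overlap and Gpx1 was downregulated by a small margin (-0.30 ± 0.10, 1.23-fold, adjusted p = 0.0363), but the call did not hold without wild type sample 1, 2 or 4 or dnBrg1 sample 1, 2 or 3 (-0.33 to -0.26). Gpx4, which reduces phospholipid hydroperoxides in membranes, was called in opposite directions by its probe sets. Its own probe set, 1456193_x_at, read 12.32, 12.27, 12.32 and 12.32 in wild type and 12.06, 11.83, 12.12 and 12.06 in dnBrg1 lenses (-0.29 ± 0.10, adjusted p = 0.0395). The other, 1451695_a_at, read 10.36, 9.92, 10.54 and 10.06 in wild type and 11.16, 10.80, 11.35 and 11.04 in dnBrg1 lenses (0.87 ± 0.17, adjusted p = 0.00282). Neither had overlap between the groups, and they differ by 1.16 in what they show for the same gene. The decrease was lost when any sample other than dnBrg1 sample 3 was left out (-0.30 to -0.23), whereas the increase was kept in each case (0.77 to 0.97). Gpx3, the secreted plasma peroxidase, was not called (-0.03 ± 0.19), and its dnBrg1 samples ranged from 9.53 to 10.51 against 9.94 to 10.11 in wild type.

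Thioredoxin has a cytosolic form, Txn1, and a mitochondrial form, Txn2. Txn2 was upregulated by all 3 of its probe sets. Its own probe set read 9.27, 9.73, 9.69 and 9.55 in wild type and 10.56, 10.38, 10.75 and 10.57 in dnBrg1 lenses, a 2.0-fold difference (1.0 ± 0.13, adjusted p = 0.00035). Probe set 1455640_a_at gave nearly the same difference (0.97 ± 0.13), and it was the only Txn2 probe set called with the control covariate (1.36 ± 0.27). Probe set 1452782_a_at differed by more (2.23 ± 0.25), from 8.53, 7.85, 9.20 and 8.29 to 10.63, 10.56, 10.88 and 10.73, and wild type sample 3 lay closest to the dnBrg1 samples. None of the Txn2 probe sets overlapped between the groups. Cytosolic thioredoxin, Txn1, read 12.85, 12.78, 12.75 and 12.74 in wild type and 13.08, 12.95, 13.10 and 12.96 in dnBrg1 lenses on its own probe set. These values did not overlap, but the difference of 0.24 ± 0.09 did not pass (adjusted p = 0.0606), and the difference between Txn2 and Txn1 was not itself tested.

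The 3 thioredoxin reductases, selenoproteins that pass electrons from NADPH to thioredoxin, differed in direction. Txnrd3, a reductase with a fused glutaredoxin domain known for its role in the testis, read 10.07, 10.59, 9.36 and 10.13 in wild type and 8.08, 7.75, 8.18 and 8.08 in dnBrg1 lenses. This was the largest decrease among the member probe sets (-2.02 ± 0.23, 4.04-fold, adjusted p = 0.000167), with no overlap. A second Txnrd3 probe set, 1423869_s_at, was downregulated by 1.37 ± 0.19 (adjusted p = 0.000468), while 1423868_at differed by -0.02 ± 0.16 and was not called. In the fit with the control covariate the 2 decreases were -0.69 ± 0.31 and -0.44 ± 0.33 and neither passed. Txnrd1, the cytosolic reductase, was upregulated on 2 probe sets with low signal. On 1424486_a_at it read 5.09, 3.54, 4.82 and 4.37 in wild type and 8.22, 8.06, 7.10 and 7.75 in dnBrg1 lenses (3.33 ± 0.35, 10.0-fold, adjusted p = 9.82e-05), and 1424487_x_at rose by 2.10 ± 0.24. The own Txnrd1 probe set, which is much brighter, read 11.89, 11.74, 12.48 and 12.03 in wild type and 12.29, 12.30, 12.18 and 12.09 in dnBrg1 lenses and was not called (0.18 ± 0.16). There wild type sample 3 was the highest of the 8 samples, and without it the difference was 0.33 and was called. Txnrd2, the mitochondrial reductase, was not called on its own probe set (-0.37 ± 0.25), and was called lower without wild type sample 3 (-0.61). Its low-signal probe set 1451936_a_at was upregulated by 0.63 ± 0.18 (adjusted p = 0.0195). That call did not hold without dnBrg1 sample 4 (0.61, adjusted p = 0.0512). Txnip, which binds and inhibits thioredoxin, was not called on either probe set (0.22 ± 0.22 and 0.39 ± 0.23), and wild type sample 3 read highest on both (11.01 and 7.37). Without that sample both were called higher (0.45 and 0.62), whereas with the control covariate 1415996_at was called lower (-1.15 ± 0.23).

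Peroxiredoxins are thiol peroxidases that thioredoxin recharges. Prdx3, the mitochondrial member, read 10.20, 10.33, 10.16 and 10.29 in wild type and 11.11, 11.18, 10.63 and 10.80 in dnBrg1 lenses. It was upregulated 1.61-fold without overlap (0.68 ± 0.14, adjusted p = 0.0034), and dnBrg1 samples 1 and 2, described as polysome-bound RNA, lay above samples 3 and 4, described as total RNA alone. Prdx4, the peroxiredoxin of the endoplasmic reticulum, read 12.57, 12.66, 12.38 and 12.58 in wild type and 12.29, 12.10, 12.28 and 11.98 in dnBrg1 lenses on its own probe set. This small decrease (-0.38 ± 0.11, adjusted p = 0.0223) did not hold without wild type sample 1 or 4 or dnBrg1 sample 2 or 4 (-0.38 to -0.32). Its other probe sets differed by 0.39 ± 0.14 and -0.32 ± 0.11 and did not pass (adjusted p = 0.053 and 0.0502), so the Prdx4 probe sets differ in sign; without wild type sample 3 both were called, in opposite directions (0.49 and -0.39). Prdx2, a cytosolic peroxiredoxin abundant in red cells, was not called on either probe set (0.14 ± 0.09 and 0.04 ± 0.13).

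The superoxide dismutases convert superoxide to hydrogen peroxide, and catalase breaks hydrogen peroxide down. No probe set of this group was called higher, and 3 of 9 were called lower, beside 19.8% and 21.0% of all probe sets. Sod2, the manganese enzyme of mitochondria, read 12.34, 12.43, 12.03 and 12.23 in wild type and 11.72, 11.70, 11.58 and 11.70 in dnBrg1 lenses. It was downregulated 1.5-fold without overlap (-0.58 ± 0.11, adjusted p = 0.00248). The other Sod2 probe sets differed by -0.22 ± 0.11 and -0.54 ± 0.20 and were not called, although 1417194_at was called lower without wild type sample 2 (-0.74) or dnBrg1 sample 4 (-0.64). Sod1, the cytosolic copper and zinc enzyme, was not called on its own probe set, which lay between 13.59 and 13.80 in all samples (-0.09 ± 0.09). Its other probe set, 1435304_at, read 9.18, 9.25, 9.04 and 9.27 in wild type and 8.82, 8.92, 8.57 and 8.83 in dnBrg1 lenses and was downregulated (-0.40 ± 0.11, adjusted p = 0.0163).

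Catalase, Cat, read 11.48, 11.44, 11.63 and 11.77 in wild type and 11.32, 11.18, 11.18 and 10.92 in dnBrg1 lenses on its own probe set. The groups did not overlap and Cat was downregulated 1.34-fold (-0.43 ± 0.12, adjusted p = 0.0198), a call lost without wild type sample 4 (-0.36) or dnBrg1 sample 4 (-0.35). Its other probe set differed in the opposite direction and was not called (0.35 ± 0.16), and was called higher without dnBrg1 sample 4 (0.47). Sod3, the extracellular dismutase, had low signal, between 2.93 and 4.36 over its probe sets and samples, and was not called. None of the dismutase or catalase calls held with the control covariate.

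Glutathione S-transferases attach glutathione to electrophiles such as products of lipid oxidation. Gstm1, a mu class enzyme, read 11.41, 11.36, 11.12 and 11.39 in wild type and 12.33, 12.33, 12.34 and 12.46 in dnBrg1 lenses on its own probe set, 1416416_x_at. Both groups were tight and far apart, an upregulation of 1.05 ± 0.10 (2.07-fold, adjusted p = 7.02e-05) that was also called with the control covariate (1.30 ± 0.21). Probe set 1448330_at gave 1.0 ± 0.11 (adjusted p = 0.000138). Probe set 1425627_x_at was not called (-0.10 ± 0.14), and the low-signal 1425626_at, at 4.06, 3.93, 3.33 and 3.94 in wild type and 3.29, 3.33, 3.16 and 3.41 in dnBrg1 lenses, was called lower with overlap (-0.51 ± 0.16, adjusted p = 0.0283). This low-signal decrease did not hold without wild type sample 1, 2 or 4 or dnBrg1 sample 1, 2 or 3 (-0.53 to -0.43), and with the control covariate its sign changed (0.10 ± 0.32). Gstm5, encoded in the same gene cluster as Gstm1, read 12.37, 12.08, 12.22 and 12.11 in wild type and 12.89, 12.95, 13.02 and 13.10 in dnBrg1 lenses. It was upregulated 1.74-fold without overlap (0.80 ± 0.10, adjusted p = 0.000337). Probe sets of such similar genes, in particular those with the suffix _x_at, may share sequence with relatives, so how the signal divides between Gstm genes is uncertain.

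Gsta4, an alpha class enzyme active on 4-hydroxynonenal, and Gstp1, the pi class enzyme, did not overlap between the groups but did not pass (0.27 ± 0.10, adjusted p = 0.0613, and 0.25 ± 0.10, adjusted p = 0.0606). Wild type sample 2 was the highest wild type value of each, and without it both were called higher (0.32 and 0.29). Gsto1, an omega class enzyme with glutaredoxin-like activity, was not called on its own probe set (-0.03 ± 0.16) and was called lower on 1456036_x_at (-0.65 ± 0.18, adjusted p = 0.0193). That call was lost without dnBrg1 sample 2 (-0.59) or 4 (-0.58), and with the control covariate its sign changed (0.28 ± 0.30).

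Both sides of the Nrf2 switch were upregulated. Nfe2l2 read 9.51, 9.70, 9.20 and 9.76 in wild type and 10.00, 9.99, 9.99 and 10.12 in dnBrg1 lenses. It was upregulated 1.40-fold without overlap (0.48 ± 0.13, adjusted p = 0.0172), and the wild type samples spread over more than the dnBrg1 samples (SD 0.25 and 0.06, n = 4 each). The call did not hold without dnBrg1 sample 4 (0.45, adjusted p = 0.0504). With the control covariate the difference was larger and was called (1.09 ± 0.23). Keap1, the adaptor that directs Nrf2 to degradation, read 9.44, 9.30, 9.71 and 9.54 in wild type and 10.04, 10.08, 9.95 and 9.99 in dnBrg1 lenses on its own probe set (0.52 ± 0.11, 1.43-fold, adjusted p = 0.00451). Its low-signal probe set also rose, by 0.92 ± 0.13 (adjusted p = 0.000406). The Keap1 differences were 0.12 ± 0.20 and 0.95 ± 0.30 with the control covariate, and neither was called.

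Nqo1, a quinone reductase often used as a readout of Nrf2 activity, was not called (0.18 ± 0.20), with 6.71, 6.76, 7.39 and 7.41 in wild type and 7.24, 7.27, 6.99 and 7.51 in dnBrg1 lenses. Hmox1, the inducible heme oxygenase, was not called either (-0.16 ± 0.37). It read 11.22, 10.88, 11.52 and 11.17 in wild type and 11.45, 11.38, 9.77 and 11.57 in dnBrg1 lenses, so dnBrg1 sample 3 alone stood 1.61 below the next dnBrg1 sample. That sample also had the highest summed intensity of 5 erythroid markers (1543, against 572 to 898 in the other dnBrg1 samples and 837 to 1400 in wild type) and of the macrophage markers within its group (3016, against 1603 to 1991); the part of these cells in the Hmox1 value was not tested. Hmox2, the constitutive heme oxygenase, read 10.33, 10.16, 10.46 and 9.77 in wild type and 10.72, 10.65, 10.77 and 10.66 in dnBrg1 lenses. It was upregulated 1.44-fold without overlap (0.52 ± 0.15, adjusted p = 0.0192), a call lost without dnBrg1 sample 3 (0.50, adjusted p = 0.0503).

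Msra, which repairs oxidized methionine in proteins with electrons from thioredoxin, read 8.58, 8.73, 8.58 and 8.53 in wild type and 9.67, 9.40, 9.74 and 9.60 in dnBrg1 lenses. It was upregulated 2.0-fold without overlap (1.0 ± 0.11, adjusted p = 0.00012) and was also called with the control covariate (1.14 ± 0.25). Mpst, mercaptopyruvate sulfurtransferase, forms persulfides and hydrogen sulfide from a cysteine metabolite and is itself reduced by thioredoxin. Mpst read 6.80, 6.64, 7.71 and 6.38 in wild type and 10.29, 9.97, 10.13 and 9.93 in dnBrg1 lenses, and wild type sample 3 was again the nearest to the dnBrg1 samples. The difference was 3.19 ± 0.25 (9.16-fold, adjusted p = 2.97e-05). Leaving out any sample kept the difference between 3.03 and 3.47. Mpst was also called with the control covariate (1.92 ± 0.44).

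**Figure D2:**
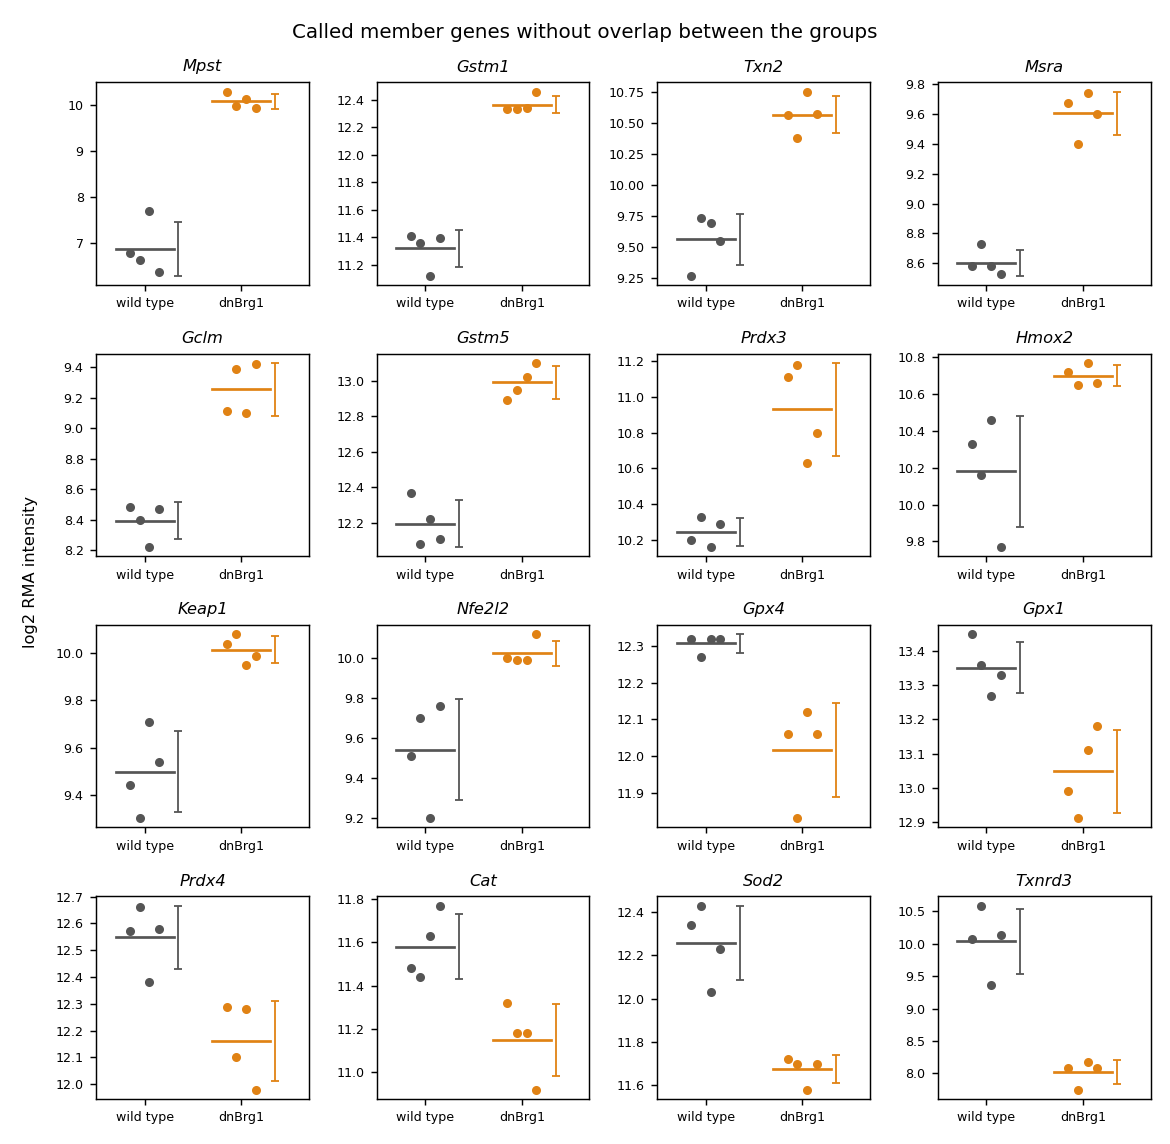
Log2 RMA intensity (vertical axis, scaled per panel and not starting at 0) of the 16 member genes called on their own probe set, in wild type (gray) and dnBrg1 (orange) lenses; points are the 4 samples of a group in order of replicate number, horizontal lines the means and vertical bars the SD. Only genes called without overlap between the groups were drawn. Mpst has the widest gap and Gpx4 and Gpx1 the narrowest changes, at -0.29 and -0.30.

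Probe sets of the same gene often disagreed. Of the 33 genes, 19 had at least 2 probe sets of their own and 14 had 1. All probe sets were called in the same direction for 2 of the 19 genes, Txn2 and Keap1. For 10 genes some probe sets were called, all in 1 direction, and for 5 genes (Gsr, Prdx2, Sod3, Txn1 and Txnip) none was called. Gpx4 and Gstm1 had probe sets called in opposite directions. The widest gap between probe sets of a gene was 3.15, for Txnrd1, followed by 2.0 for Txnrd3. The cause of these gaps was not tested.

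The wild type samples varied more than the dnBrg1 samples over the members, with a median SD of 0.244 against 0.148 across the 59 probe sets, and of 0.229 against 0.151 across all probe sets. For 13 of the 30 called member probe sets (43.3%), wild type sample 3 was the wild type sample nearest to the dnBrg1 mean, and over all called probe sets it was nearest for 50.4%. Wild type sample 3 also had the smallest control difference of its group, 1.85 for β-actin and 1.0 for Gapdh.

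**Figure D3:**
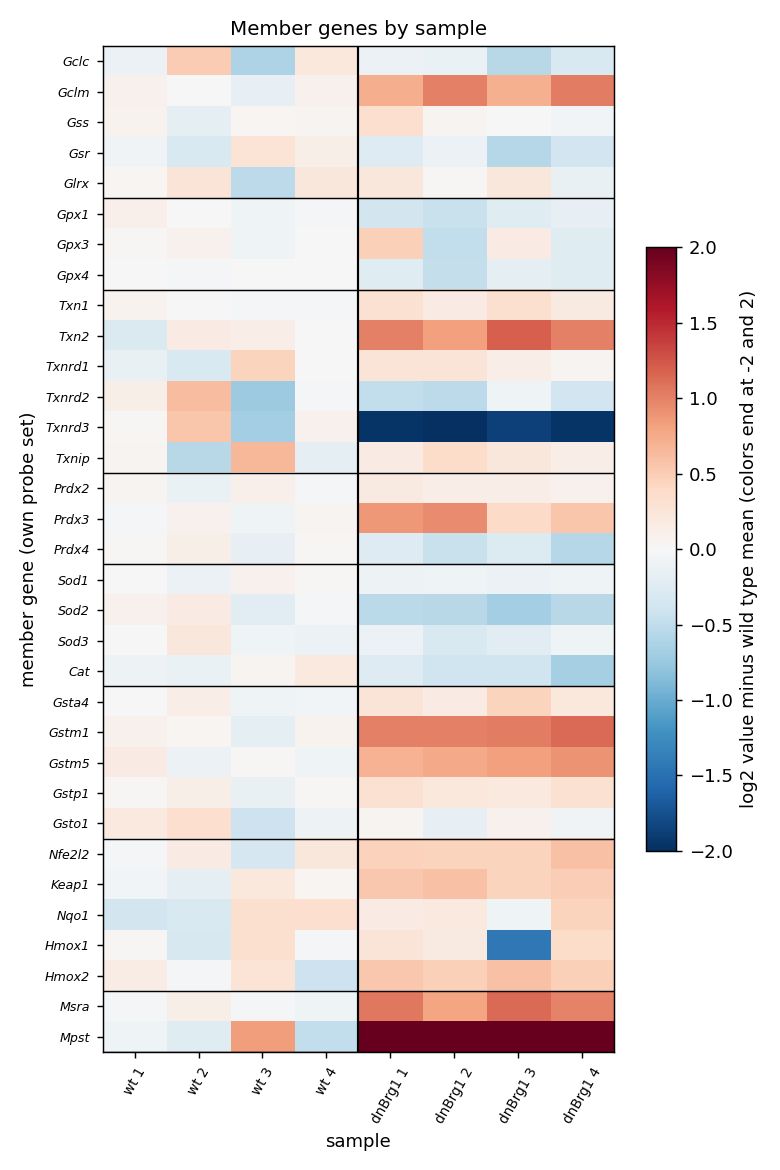
Log2 value of each member gene on its own probe set minus the gene's wild type mean (color, ending at -2 and 2), by gene (rows, grouped by role) and sample (columns). The dnBrg1 columns are alike for most genes, and Hmox1 in dnBrg1 sample 3 stands apart at 9.77. Within the wild type columns Txnrd1, Txnrd2, Txnrd3, Txnip and Mpst each lie farthest from their mean in sample 3.

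With the control covariate, 6 of the 30 member calls were kept, 22 were lost and 2 changed sign, and 1 uncalled probe set, of Txnip, was called. The calls kept were those of Mpst (1.92 ± 0.44), Gclc on 1424296_at (1.60 ± 0.38), Txn2 on 1455640_a_at (1.36 ± 0.27), Gstm1 on its own probe set (1.30 ± 0.21), Msra (1.14 ± 0.25) and Nfe2l2 (1.09 ± 0.23), all higher in dnBrg1 lenses. The differences of Gclm, Txn2 on its own probe set and Prdx3 were as large or larger with the covariate (1.06 ± 0.27, 1.10 ± 0.32 and 0.94 ± 0.32) but had wider errors and did not pass. Those of Gpx4 on 1451695_a_at, Hmox2 and Keap1 on its own probe set were close to 0 (0.10 ± 0.30, 0.04 ± 0.32 and 0.12 ± 0.20). A call lost in this fit does not show that a transcript was unchanged, because the covariate nearly follows genotype. For the same reason, a call kept does not set genotype apart from the control difference.

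**Figure D4:**
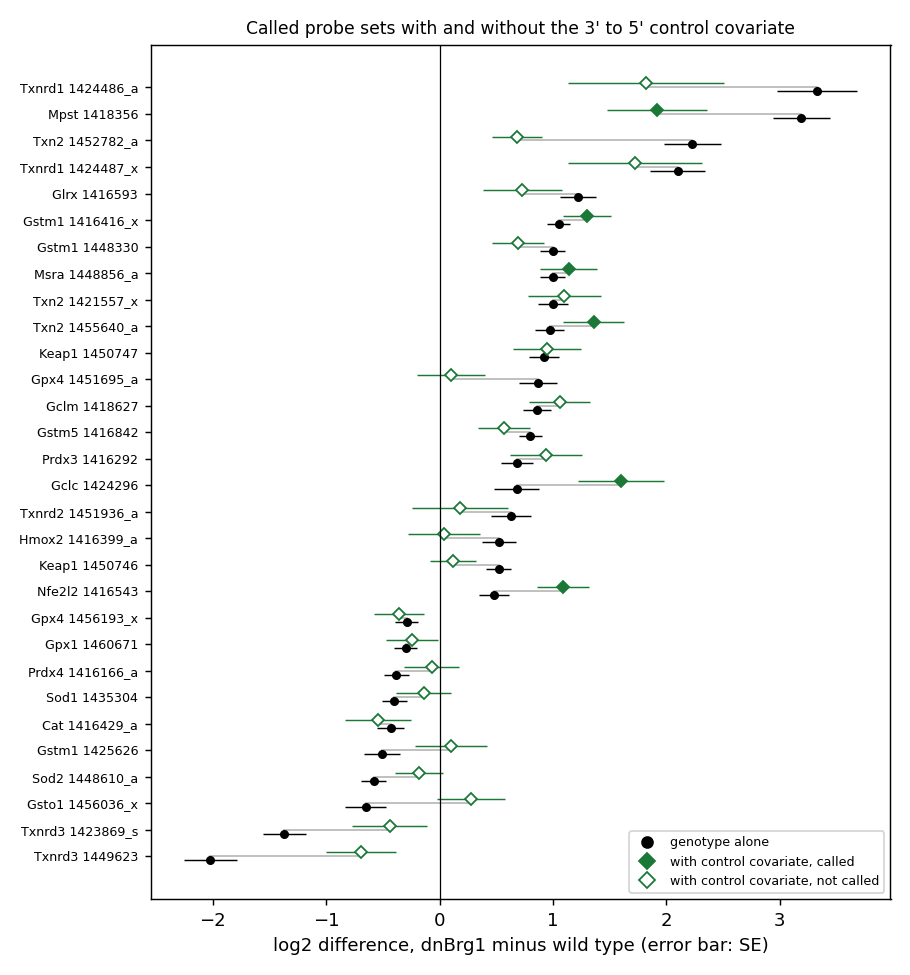
Log2 difference, dnBrg1 minus wild type (horizontal axis), of the 30 called member probe sets (vertical axis), fitted with genotype alone (black circles) and with the control covariate (green diamonds, filled where called); bars are the SE. Mpst, Gstm1, Msra, Nfe2l2, Txn2 and Gclc keep a call on 1 probe set each, while both Txnrd3 differences shrink, to -0.69 and -0.44.

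A wider list of 68 genes of the same pathways, 61 of them with a probe set of their own, was examined in the same way. On their own probe sets 20 genes were upregulated and 14 were downregulated, and 27 were not called (median difference -0.01, beside -0.11 over all 12393 genes). These are 32.8% called higher and 23.0% called lower, beside 17.5% and 23.3% of all genes. Brightness was not matched here, as 41 of the 61 genes lay at or above the median of all probe sets, against 6990 of all 12393. Among 16 further glutathione S-transferases 6 were called higher (37.5%) and 3 lower (18.8%), against 17.5% and 23.3% of all genes. On own probe sets, the largest increases of the wider list were those of Msrb2, Mgst3, Gstt2 and Gstk1. Msrb2 is a mitochondrial methionine sulfoxide reductase (1.44 ± 0.25) and Mgst3 a microsomal glutathione transferase (1.36 ± 0.13). Gstt2 is a theta class transferase (1.32 ± 0.20) and Gstk1 the kappa class transferase of mitochondria and peroxisomes (1.21 ± 0.11). Mgst3 read 6.79, 6.80, 7.13 and 6.91 in wild type and 8.46, 8.0, 8.39 and 8.22 in dnBrg1 lenses, and Gstk1 8.19, 8.09, 8.32 and 7.95 against 9.37, 9.35, 9.47 and 9.19. A further Mgst3 probe set differed in the opposite direction and was not called (-0.46 ± 0.21).

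The largest decrease of the wider list was that of Mt1, a metallothionein that binds zinc and copper and scavenges radicals. Mt1 read 10.19, 10.07, 9.64 and 10.22 in wild type and 7.64, 7.46, 7.92 and 7.76 in dnBrg1 lenses (-2.34 ± 0.16, 5.05-fold, adjusted p = 1.53e-05) and was the only named gene of this list called with the control covariate (-1.89). Chac1, which degrades glutathione, was downregulated (-1.88 ± 0.60, adjusted p = 0.0322) with 1 wild type sample far above the others (9.55 in sample 4, against 6.41 to 7.49). Gstt1, a theta class transferase, fell by 1.71 ± 0.32, opposite to Gstt2, and Me1, malic enzyme, which makes NADPH, fell by 0.89 ± 0.17. A further Me1 probe set was not called (-0.33 ± 0.25), and a further Mt1 probe set was called lower (-0.45 ± 0.15). Chac1 and Gstt1 changed sign with the control covariate (0.14 and 0.10). Of the 8 genes of NADPH supply, 2 were called higher and 2 lower, and of the 8 Nrf2 partners and regulators, 2 were called higher and 3 lower (25% higher and 25% lower for the former, 25% and 37.5% for the latter, beside the same 17.5% and 23.3% of all genes).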

How the data were processed

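Arrays of 4 wild type and 4 dnBrg1 samples of whole E15.5 lenses were used, each hybridized with cDNA amplified from 50 ng of RNA. The authors processed the scans with RMA (version not given in the sources used here) and deposited intensities on the linear scale. RMA forces the probe intensities of the arrays onto 1 distribution before summarizing them and can therefore hide shifts common to most transcripts. The deposited values still differed, with maxima from 25972 to 26158 in wild type and from 27711 to 28468 in dnBrg1 samples. The deposited intensities were taken to log2. Of 22690 probe sets, 64 controls were set aside. The platform annotation names 1 gene for 20380 probe sets, several for 691 and none for 1555. Differences (dnBrg1 minus wild type) were estimated per probe set by lmFit and eBayes of limma 3.58.1 under R 4.3.3, with no filter and no covariate, after a test on simulated data. Sample descriptions name polysome-bound RNA for all wild type and for dnBrg1 samples 1 and 2, and total RNA alone for dnBrg1 samples 3 and 4, while the molecule is total RNA for all 8; this was an alternative, not a group. The limma p-values set each difference against the spread of these samples within their groups, with a variance that borrows from all probe sets.

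The members, lists, tests and naming rule were chosen with earlier results of these data known. Values are given for members called without overlap on their own probe set, for members called in opposite directions, and for Nfe2l2 and Keap1. The other members are counted, and values given for them were chosen after they were seen. From the wider list the rule takes up to 4 increases and 4 decreases of largest size on the own probe sets. Alternatives were the scaling between arrays, a constant of 16 added before log2, brighter probe sets alone, the variance prior, weights for arrays, leaving out each sample, splitting the dnBrg1 samples by their description, adding the described RNA, the control difference or the replicate number as a term, an adjusted p under 0.01, a change of at least 1.5-fold, the methods' t-test, and the mean of a gene's probe sets.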

Additional observations from a re-analysis of the deposited data

Results flagged for a closer look

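Among the member probe sets and the 8 named genes of the wider list, 134 groups of 4 samples were examined for a sample far from its group, by the gap to its neighbor over the group's range (Dixon's 95% limit). Chance flags about 1 in 20 groups, or 6.7 here, and 9 were found. Hmox1 in dnBrg1 sample 3 (9.77, against 11.38 to 11.57, ratio 0.897) had the widest gap. In dnBrg1 samples, Txnrd3 on 1423869_s_at was low in sample 2 (6.81, against 7.21 to 7.26, ratio 0.883), Sod2 was low in sample 3 (11.58, against 11.70 to 11.72, ratio 0.846), and sample 4 was high for Gstm1 on 1416416_x_at (12.46, against 12.33 to 12.34, ratio 0.898) and for Nfe2l2 (10.12, against 9.99 to 10.0, ratio 0.874). In wild type samples, sample 2 was low for Gss (11.46, against 11.68 to 11.71, ratio 0.888) and for Gpx4 on 1456193_x_at (12.27, against 12.32 in the others, ratio 0.912), sample 3 was low for Gstm1 on 1416416_x_at (11.12, against 11.36 to 11.41, ratio 0.838), and sample 4 was low for Txnrd3 on 1423868_at (5.70, against 6.21 to 6.30, ratio 0.855).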

How the results depend on the processing

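With the control covariate 808 probe sets were called higher and 634 lower in all, with 6 and 1 member probe sets, 4 and 1 member genes, and 2 and 1 genes of the wider list. Gstm1 on 1425626_at (0.10), Gsto1 on 1456036_x_at (0.28), Chac1 (0.14) and Gstt1 (0.10) then changed sign, and uncalled Txnip on 1415996_at was called lower (-1.15). With dnBrg1 samples 1 and 2 alone, 2600 probe sets were called lower, with 3 member probe sets and 2 member genes, and the wider list had 13 genes higher and 8 lower. With dnBrg1 samples 3 and 4 alone, the lower calls were 2825, 5 and 3, and with the described RNA as a covariate 3114, 4 and 3. An adjusted p under 0.01 left 2820, 3 and 2 lower calls, and a change of at least 1.5-fold left 2996, 3 and 1. Leaving out each sample in turn gave between 5 and 12 member probe sets and between 2 and 7 member genes called lower, and a Gapdh control difference between -1.13 and -0.67, with an exact permutation p of 0.0571 without any 1 of the dnBrg1 samples.

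Same-numbered samples of the groups did not deviate together (correlations -0.19 to 0.16), so the numbers were not taken as a pairing. With the replicate number as a block, 21 member probe sets were called higher and 7 lower, with 10 and 2 member genes. By the methods' t-test 25 member probe sets were higher and 12 lower at its unadjusted threshold, and 21 and 9 after Benjamini-Hochberg adjustment. The methods also required a significance analysis of microarrays, which was not run here, so these counts do not follow their full rule. In every fit but that with the control covariate the counts of member probe sets called higher stayed within 1.5 times the 20 reported. The median difference over member probe sets, 0.141, was 0.216 with dnBrg1 samples 1 and 2 alone and with the described RNA as a covariate, and 0.083 to 0.213 when each sample was left out. The cause of these changes was not tested. Low signal limits Sod3, Keap1 on 1450747_at and the Txnrd1 probe sets called higher. Further called member probe sets with a mean below the median of all probe sets were Glrx on 1416593_at, Gclc on 1424296_at, Txnrd2 on 1451936_a_at and Gstm1 on 1425626_at. Of the named genes of the wider list, Msrb2, Mgst3, Gstt2 and Chac1 also lay below that median.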
